A study of Mesocricetus auratus with 10 samples.

Results

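The genes described here encode the metalloproteinases that cut the extracellular matrix and the cell surface, and their tissue inhibitors. They were chosen by name, as all genes that the array's design names MMP, ADAM or TIMP with a number, or ADAMTS, which gave 45 of 14434 named genes. They comprised 10 MMP, 13 ADAM, 13 ADAMTS, 5 ADAMTS-like (ADAMTSL) and 4 TIMP genes, carried by 204 probes. Each HFD sample was liver RNA of 1 male golden hamster (Mesocricetus auratus) fed a high fat diet, with 10 such animals. The STD sample was 1 pool of liver RNA from 10 male hamsters fed a standard diet. The labels used here state neither the age of the animals nor how long they were fed, and they name no genetic alteration. A pair of arrays with exchanged dyes compared each HFD liver with the pool, 20 arrays in all. Values are log2 ratios, HFD over STD pool, so that a positive value means more RNA in HFD liver. Means are given ± SD between animals, n = 10.

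MMPs are zinc proteases made as inactive precursors, most of them secreted and some held at the cell membrane, and together they degrade collagens, laminins and proteoglycans. ADAMs sit in the membrane and release the outer part of other membrane proteins, ADAMTS proteases are secreted and trim procollagens and large proteoglycans, and TIMPs block the active site. In liver the matrix enzymes and TIMP1 are made largely by stellate cells, macrophages and endothelium and are best known from the build-up and resolution of fibrosis.

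Of the 45 genes, 43 had a probe bright enough to test. ADAM8 and ADAMTSL3 were not tested, since the only probe of each was well above background on 2 of 20 arrays in HFD RNA and on 2 of 20 in the pool. For 35 genes the probe was well above background on all 20 arrays in both RNAs. The brightest kept probe stood for its gene. The 6 arrays with HFD in Cy3 of animals 5 to 10 stood apart: across genes they correlated with each other at r between 0.855 and 0.929, while the arrays with HFD in Cy5 correlated with each other at r between 0.483 and 0.773. What sets these 6 arrays apart was not tested. Where a gene is said to average a value without these 6 arrays, the value is a mean fitted to the other 14 arrays singly. That fit held a term for dye, so the value is not a plain average of the 14 arrays.

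The probes that the following results turn on show what was measured. The brightest probes of MMP19 and MMP17 carried the only calls of this family that held under every alternative tried. The MMP15 probe gave the highest ratio of its gene. The 2 ADAM17 probes lie on the same assembled transcript and differed in direction.
MMP19 brightest: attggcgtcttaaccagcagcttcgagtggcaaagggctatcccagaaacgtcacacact
MMP17 brightest: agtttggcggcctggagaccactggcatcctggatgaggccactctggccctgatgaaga
MMP15 highest: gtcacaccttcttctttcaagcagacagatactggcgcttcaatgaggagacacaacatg
ADAM17 brightest: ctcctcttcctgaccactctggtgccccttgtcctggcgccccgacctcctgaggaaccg
ADAM17 highest: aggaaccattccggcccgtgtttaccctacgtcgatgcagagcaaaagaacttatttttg

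Most of these genes changed little with the processing used here. Of the 43 tested, 10 were higher in HFD liver and 11 lower (limma, adjusted p under 0.05), and 22 were not called. That is 48.8% called, 23.3% higher and 25.6% lower, where 60.3% of all 13827 genes tested were called, 31.4% higher and 28.9% lower. The median size of the change was 0.07 on the log2 scale among the 43 genes and 0.11 over all genes. A called change of at least 0.3 was found for 1 gene, MMP19, which is 2.33% of the 43, against 16.4% of all genes (8.2% higher and 8.17% lower). The sign was the same in all 10 animals for 7 genes (16.3%), against 31.5% of all genes. The median ratio was 0.01 for the 43 genes and 0.01 for all genes, and the median SD between animals was 0.10 and 0.11. The size of some changes depended on the processing. With the intensities processed by Feature Extraction, called changes of at least 0.3 were 1 higher (MMP17) and 3 lower (ADAM2, MMP19 and MMP23). The authors' log2 ratios gave 1 higher (MMP17) and 2 lower (ADAM2 and MMP19), and median centring gave none. The shares of all genes under these alternatives are not given here. The pool was a single RNA, so these tests leave out the spread among STD animals, and in whole liver fewer cells of a type and less RNA per cell cannot be told apart.

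**Figure D1:**
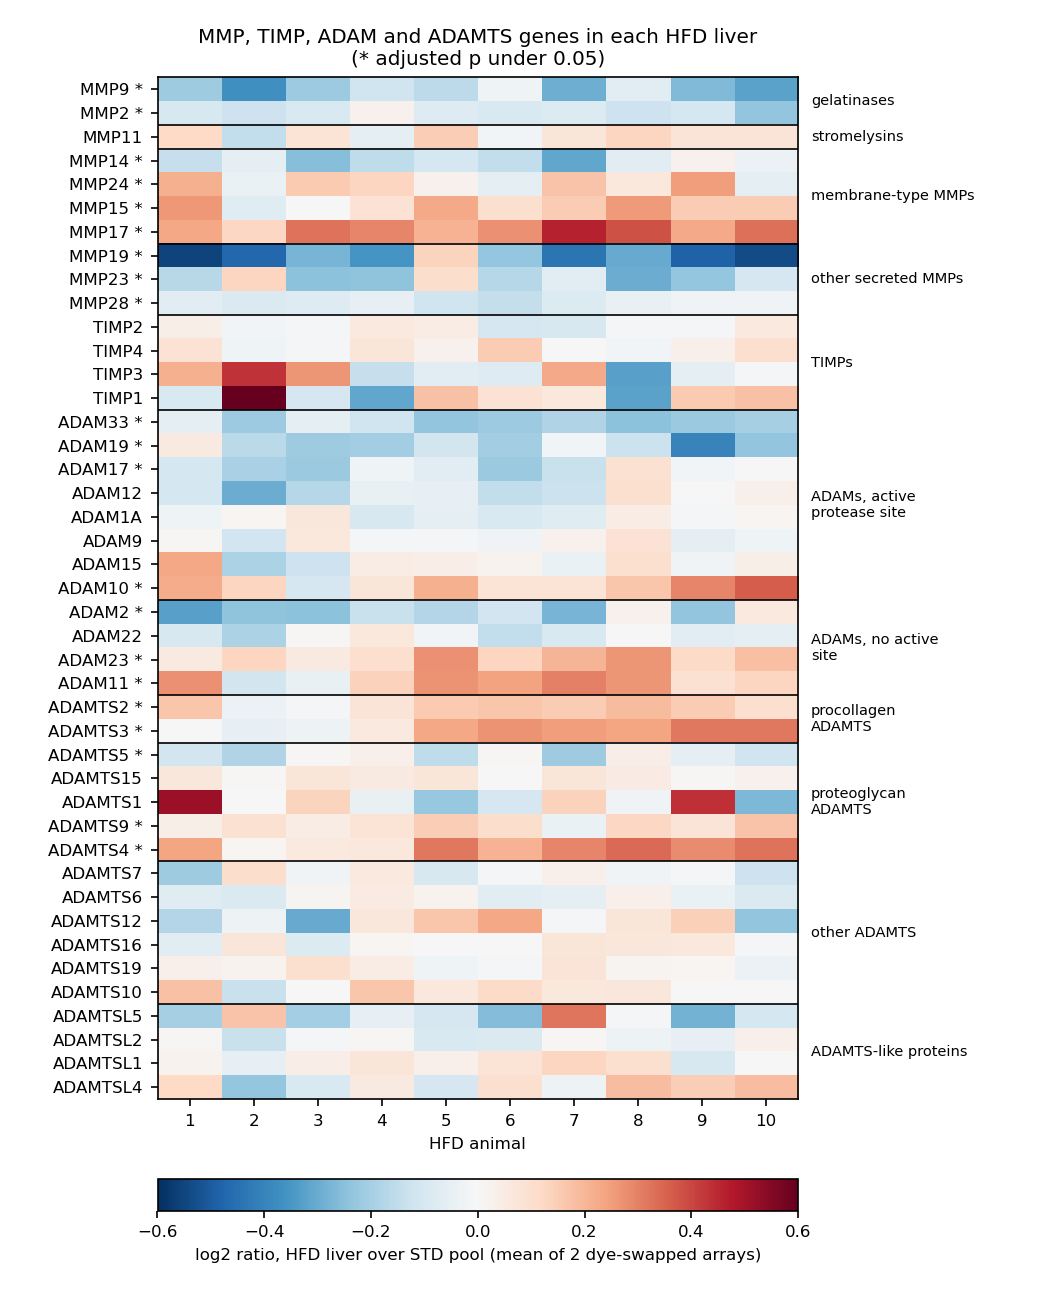
The colour of each cell is the log2 ratio of 1 HFD animal (columns) over the STD pool for 1 gene (rows, brightest probe, grouped by role), red for higher and blue for lower in HFD liver, and an asterisk marks the 21 genes with an adjusted p under 0.05. MMP19 is blue in 9 of 10 animals and MMP17 red in all 10, while the TIMP rows mix both colours.

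Among the gelatinases, which digest denatured collagen and basement membrane collagen, both genes were lower in HFD liver by their brightest probe. MMP9, made mainly by leukocytes, ranged from -0.37 to -0.02 in the 10 animals with a median of -0.22. All 10 HFD livers lay below the pool, those of animals 6 and 8 closest to it. The mean was -0.20 ± 0.11, 1.15-fold lower (adjusted p = 0.000223). MMP2, made by stellate cells and fibroblasts, ranged from -0.24 to 0.03 with a median of -0.09. Of the 10 animals 9 lay below the pool and animal 4 just above it, and the mean was -0.10 ± 0.06 (adjusted p = 0.00339). None of the further probes of either gene was called, 2 for MMP9 and 6 for MMP2, and MMP2 averaged 0.05 on the arrays with HFD in Cy5 and -0.25 on those with HFD in Cy3. The mean of all probes was -0.04 ± 0.08 for MMP9 (adjusted p = 0.213) and -0.02 ± 0.06 for MMP2 (adjusted p = 0.306), neither called, and without the 6 arrays that stood apart MMP2 averaged -0.07 (adjusted p = 0.0834). The MMP9 mean of all probes includes a probe, averaging 0.09, that reads the opposite strand to the brightest. Whether that probe reads MMP9 mRNA was not tested.

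MMP19, a secreted protease of basement membrane and other matrix proteins, was the only gene of this family with a called mean of at least 0.3 in size with the processing used here. It ranged from -0.56 to 0.13 with a median of -0.40. In 9 animals it lay clearly below the pool, and in animal 5 above it. The mean was -0.35 ± 0.20, 1.28-fold lower (adjusted p = 0.000145). All 6 further probes, which lie on 3 assembled transcripts with the brightest, were also lower, with means from -0.40 to -0.18. Arrays with HFD in Cy5 gave -0.44 and arrays with HFD in Cy3 -0.26. MMP23 and MMP28 were lower as well. MMP23 averaged -0.13 ± 0.15 (adjusted p = 0.0192), and MMP28, also called epilysin, averaged -0.07 ± 0.04, below 0 in 10 of 10 animals (adjusted p = 0.01). Both calls were lost without the 6 arrays that stood apart, at -0.09 for MMP23 (adjusted p = 0.212) and -0.04 for MMP28 (adjusted p = 0.443), and MMP23 was not called when the same test was run on the log2 ratios of the authors' deposited table (adjusted p = 0.0806). Neither of the 2 further MMP28 probes was called, and the mean of its 3 probes was -0.03 (adjusted p = 0.337). The stromelysin MMP11 was not called on its brightest probe (0.05 ± 0.09, adjusted p = 0.19), while both of its further probes were higher, at 0.07 and 0.12.

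The membrane-type MMPs, which act at the cell surface, did not move together: 3 were higher and 1 was lower. MMP14, the main activator of the MMP2 precursor, ranged from -0.31 to 0.02 with a median of -0.12. The highest animal, number 9, was the only HFD liver above the pool, and animals 3 and 7 were the lowest. The mean was -0.13 ± 0.10 (adjusted p = 0.00428), and 5 of 8 further probes were lower with none higher. Among these lower probes, 1 lies on the assembled transcript of the brightest, at -0.20. The others lie on a transcript with a probe that reads the opposite strand to a probe on the transcript of the brightest. Whether those others read MMP14 mRNA was not tested. The MMP14 call was lost without the 6 arrays that stood apart, at a mean of -0.10 (adjusted p = 0.106).

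MMP17, which is attached to the membrane by a lipid anchor, is described here after its values were seen, as are MMP15 and MMP24. It ranged from 0.12 to 0.46 with a median of 0.28. All 10 HFD livers lay above the pool, that of animal 2 lowest and that of animal 7 highest. The mean was 0.29 ± 0.10, 1.22-fold higher (adjusted p = 5.56e-06). It averaged 0.39 with HFD in Cy5 and 0.19 with HFD in Cy3. Its 1 further kept probe, on another assembled transcript, averaged 0.01 and was not called.

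MMP15, a transmembrane MMP, averaged 0.13 ± 0.11 on its brightest probe, above 0 in 9 of 10 animals (adjusted p = 0.00428). That ratio came from the arrays with HFD in Cy5 (0.27), while those with HFD in Cy3 gave -0.01. Its 2 further probes gave larger ratios, 0.20 ± 0.14 and 0.66 ± 0.16, the higher of them above 0 in 10 of 10 animals. The mean of its 3 probes was 0.33 ± 0.10 (adjusted p = 2.54e-06), with 0.34 and 0.32 in the HFD-in-Cy5 and HFD-in-Cy3 arrays. The 3 probes thus shared a direction over the 20 arrays and differed in size. MMP24, known mainly from nervous tissue, stood at the threshold on its brightest probe (0.09 ± 0.11, adjusted p = 0.0497), and leaving out any of animals 1, 3, 4, 5, 7, 8 or 9 ended the call (adjusted p up to 0.117). Of its 5 further probes 4 were higher, and 1 of them averaged 1.18 ± 0.55, above 0 in 10 of 10 animals, although it lies on the same assembled transcript as the brightest. The mean of the 6 MMP24 probes was 0.26 ± 0.12, above 0 in 10 of 10 animals (adjusted p = 5.3e-05). It was 0.33 with HFD in Cy5 and 0.20 with HFD in Cy3. That mean includes the probe at 1.18, and the median of the further probes was 0.10.

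**Figure D2:**
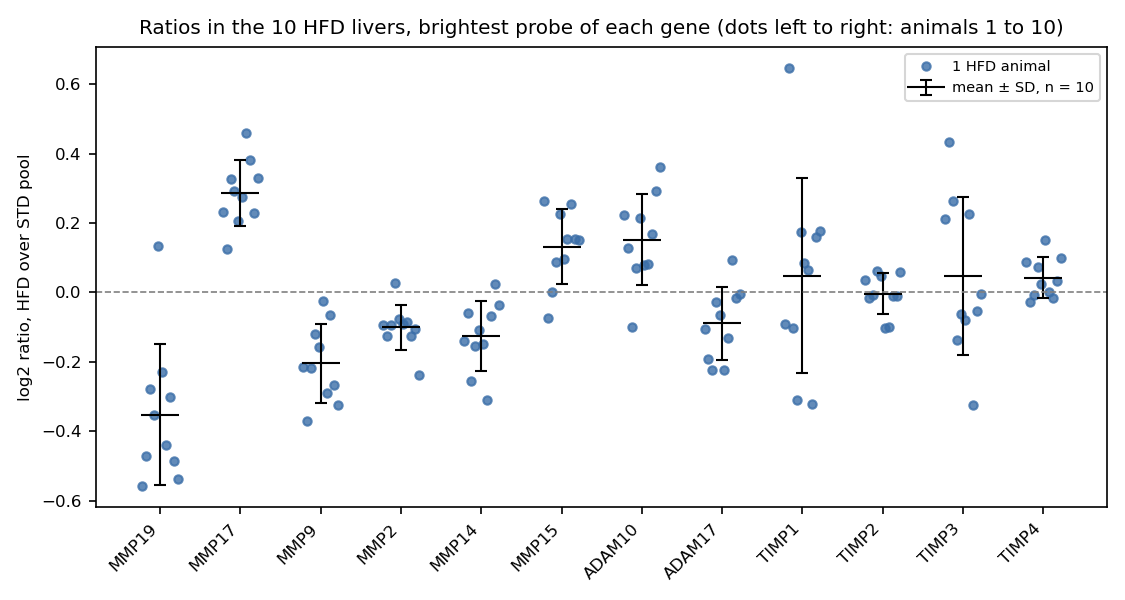
Each dot is the log2 ratio of 1 HFD liver over the STD pool for 12 of the genes (brightest probe), and the bars give the mean ± SD over 10 animals. The dots of MMP17 all lie above 0 and those of MMP9 all below it, animal 5 stands apart in MMP19 and animal 2 in TIMP1, and the TIMP means lie between -0.00 and 0.05.

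None of the 4 TIMP genes was called. TIMP1, an inhibitor of most MMPs that is known to rise in fibrosing liver, ranged from -0.32 to 0.65 with a median of 0.07. The animals lay on both sides of the pool, with animals 4 and 8 low and animal 2 far above the rest. The mean was 0.05 ± 0.28 (adjusted p = 0.605). TIMP2, which also takes part in activating the MMP2 precursor, ranged from -0.10 to 0.06 with a median of -0.01, and its mean was -0.00 ± 0.06 (adjusted p = 0.897). Its animals scattered closely around the pool. The 5 probes of TIMP2 all lie on 1 assembled transcript, yet 1 was lower at -0.43 ± 0.08 and another higher at 0.28 ± 0.21.

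TIMP3, a matrix-bound inhibitor that also blocks ADAM17, ranged from -0.33 to 0.43 with a median of -0.03. Animals 1, 2, 3 and 7 lay above the pool and the others at or below it. Its mean was 0.05 ± 0.23 (adjusted p = 0.533), made up of 0.35 on the arrays with HFD in Cy5 and -0.26 on those with HFD in Cy3. Without the 6 arrays that stood apart it averaged 0.19 (adjusted p = 0.0256). TIMP4 ranged from -0.03 to 0.15 with a median of 0.03 and averaged 0.04 ± 0.06 (adjusted p = 0.142). Its animals all lay near the pool, 7 above it.

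The ADAMs with an active protease site were mixed, with ADAM10 higher, ADAM17, ADAM19 and ADAM33 lower, and ADAM9, ADAM12, ADAM15 and ADAM1A not called. ADAM10, the sheddase of NOTCH receptors, ranged from -0.10 to 0.36 with a median of 0.15. Only animal 3 lay below the pool, and animals 9 and 10 were highest. The mean was 0.15 ± 0.13 (adjusted p = 0.0042), and 8 of 10 further probes were higher. It averaged 0.06 with HFD in Cy5 and 0.25 with HFD in Cy3, and without the 6 arrays that stood apart it averaged 0.07 and was not called (adjusted p = 0.301).

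ADAM17, the sheddase of TNF and of ligands of the EGF receptor, ranged from -0.22 to 0.09 with a median of -0.09 on its brightest probe. Animal 8 was above the pool and animals 3 and 6 were lowest, with a mean of -0.09 ± 0.10 (adjusted p = 0.0323). The call was lost without animal 1, 2, 3, 6 or 7 (adjusted p up to 0.0798). Its other probes went the opposite way: 10 of 15 were higher and none was lower, the highest at 0.28 ± 0.13 and above 0 in 10 of 10 animals. Those probes were not all separate readings, since some shared 33 to 35 bases. In a pair with the same 60 bases, a probe was higher at 0.14 and its partner was not called at 0.09. The mean of the 16 kept ADAM17 probes was 0.11 ± 0.09, above 0 in 9 of 10 animals (adjusted p = 0.00395), and it stayed at 0.10 without the 6 arrays (adjusted p = 0.0105). The call of ADAM17 as lower thus rests on 1 probe of 16. ADAM9 showed a like pattern, since its brightest probe averaged -0.01 ± 0.06 (adjusted p = 0.846) and 5 of 8 further probes were higher. The mean of its 9 probes was 0.10 ± 0.09, with -0.01 in HFD-in-Cy5 arrays and 0.21 in HFD-in-Cy3 arrays.

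ADAM33 averaged -0.18 ± 0.07, below 0 in 10 of 10 animals (adjusted p = 8.05e-05), with none of 3 further probes called. It averaged -0.06 with HFD in Cy5, where it was not called (adjusted p = 0.151), and -0.29 with HFD in Cy3. Without the 6 arrays that stood apart it averaged -0.09 (adjusted p = 0.0486), and the mean of its 4 probes was -0.05 (adjusted p = 0.0197). ADAM19 averaged -0.16 ± 0.12 (adjusted p = 0.00212), and its 1 further probe was also lower, at -0.23. Among the ADAMs without an active site, ADAM11 (0.16 ± 0.14) and ADAM23 (0.15 ± 0.08) were higher, ADAM2 (-0.17 ± 0.13) was lower and ADAM22 was not called. Without the 6 arrays that stood apart ADAM11 averaged 0.09 (adjusted p = 0.245) and ADAM23 0.07 (adjusted p = 0.109). None of the 4 further ADAM11 probes was called, and the mean of its 5 probes was 0.03 (adjusted p = 0.142), while 1 of 3 further ADAM23 probes was higher. ADAM11, ADAM22 and ADAM23 are known from neurons as surface receptors, and ADAM2 as a sperm surface protein. ADAM22 averaged 0.22 on arrays with HFD in Cy5 and -0.33 on those with HFD in Cy3.

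**Figure D3:**
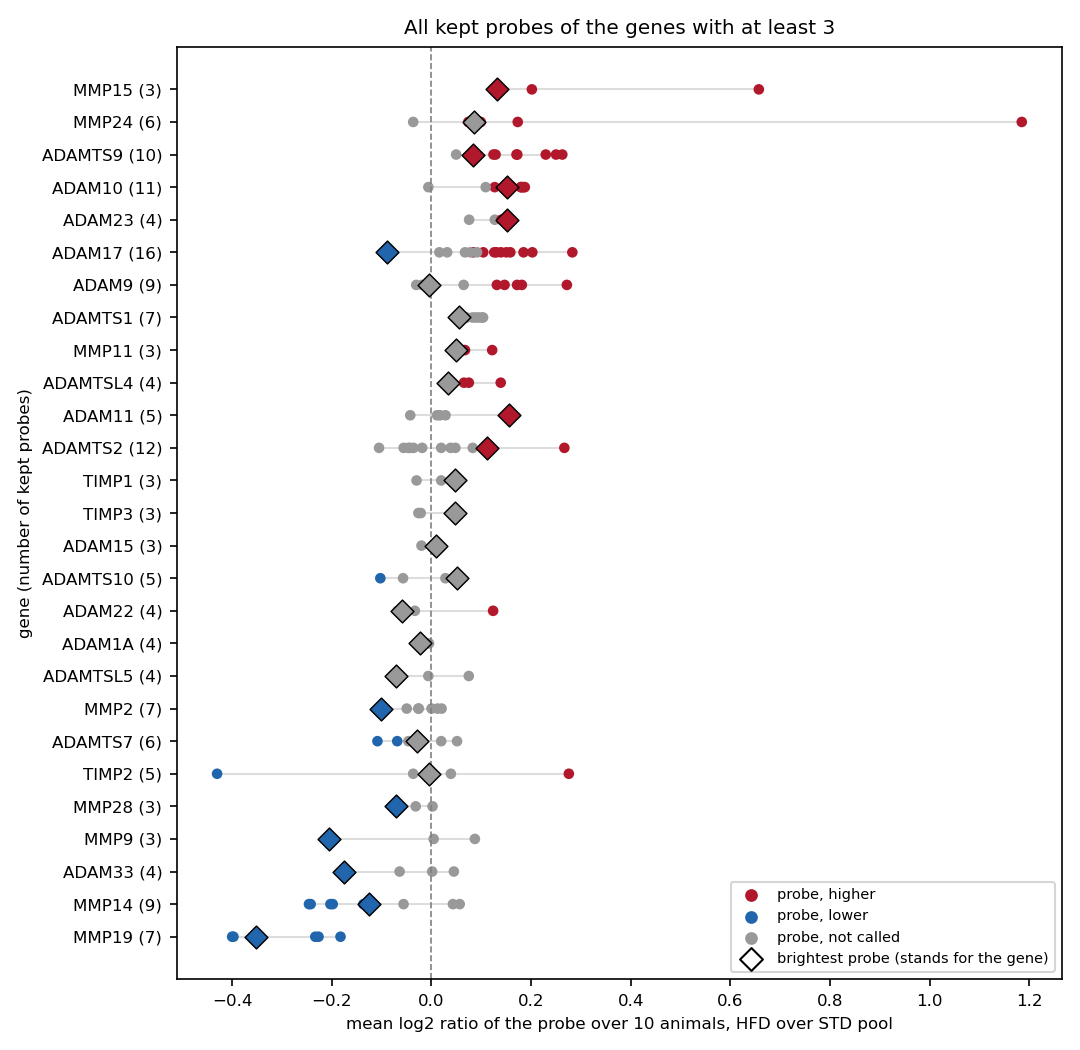
Each symbol is the mean log2 ratio over 10 animals, HFD over STD pool, of 1 kept probe of a gene with at least 3 kept probes (rows, number of probes in brackets), coloured by its call among all probes, and the diamond is the brightest probe. All 7 MMP19 probes are lower, the brightest ADAM17 probe lies apart from the other 15, and MMP15, MMP24 and TIMP2 have probes far from their brightest; MMP24 was called as a gene (adjusted p = 0.0497) but not as a probe (adjusted p = 0.0539).

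Both measured procollagen N-propeptidases, which trim fibrillar procollagens so that fibres can form, were higher: ADAMTS2 averaged 0.11 ± 0.08 (adjusted p = 0.00321) and ADAMTS3 0.16 ± 0.15 (adjusted p = 0.00549). Of 11 further ADAMTS2 probes 1 was higher, and the mean of its 12 probes was 0.02 (adjusted p = 0.36). ADAMTS3 averaged -0.01 without the 6 arrays that stood apart. Among the proteases of aggrecan and versican, ADAMTS4 (0.21 ± 0.12, adjusted p = 0.00029) and ADAMTS9 (0.08 ± 0.06, adjusted p = 0.00966) were higher and ADAMTS5 (-0.07 ± 0.09, adjusted p = 0.0499) was lower. The ADAMTS5 call was lost without animal 1, 2, 5, 7, 9 or 10 (adjusted p up to 0.121). ADAMTS1 and ADAMTS15 were not called. ADAMTS4 was above 0 in 10 of 10 animals and its 1 further probe was higher too, at 0.15, but without the 6 arrays it averaged 0.09 (adjusted p = 0.157). For ADAMTS9, which differed in sign between the orientations (-0.06 with HFD in Cy5 and 0.22 with HFD in Cy3), 8 of 9 further probes were higher. The mean of its 10 probes was 0.16 ± 0.10, positive in both orientations at 0.10 and 0.21.

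On the brightest probe, no gene was called among the other ADAMTS genes (ADAMTS6, ADAMTS7, ADAMTS10, ADAMTS12, ADAMTS16 and ADAMTS19). Nor was any called among the ADAMTS-like genes (ADAMTSL1, ADAMTSL2, ADAMTSL4 and ADAMTSL5), which encode matrix proteins without a protease domain. All 3 further ADAMTSL4 probes were higher, however. The mean of its 4 probes was 0.08 ± 0.04, above 0 in 9 of 10 animals (adjusted p = 0.00162). That mean was 0.14 with HFD in Cy5 and 0.01 with HFD in Cy3, and 0.10 without the 6 arrays that stood apart (adjusted p = 0.00223). Of the further probes, 2 of 5 for ADAMTS7 and 1 of 4 for ADAMTS10 were lower. ADAMTS1, known to be induced quickly by inflammatory stimuli, had the widest spread after TIMP1, from -0.27 to 0.51 with a median of -0.01. Animals 1 and 9 stood above the rest.

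Counted over probes, 180 of the 204 were kept, and 56 were higher, 26 lower and 98 not called. The share called was 45.6%, against 59.2% of all 61679 kept named probes. Further probes were kept for 17 of the called genes, and 10 of these (58.8%) had 1 or more called in the same direction and 1 (5.88%), ADAM17, had one called in the opposite direction. Over all genes these shares were 77.8% and 22.9% of 6943. 2 genes had probe pairs that read the same stretch on opposite strands, and the capitals in the following sequences mark the shared bases, which in each pair are reverse complements.
MMP9 on hamV2-116328: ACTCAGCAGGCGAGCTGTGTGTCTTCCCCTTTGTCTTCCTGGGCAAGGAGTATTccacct
MMP9 on hamV2-116332: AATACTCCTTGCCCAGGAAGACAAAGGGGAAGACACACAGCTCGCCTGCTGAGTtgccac
MMP14 on hamV2-90113: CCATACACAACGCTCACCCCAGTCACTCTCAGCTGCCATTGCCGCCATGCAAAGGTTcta
MMP14 on hamV2-65314: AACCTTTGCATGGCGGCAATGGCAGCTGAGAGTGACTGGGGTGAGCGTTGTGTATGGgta

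In MMP9 the 2 probes share 54 bases. The probe on hamV2-116328, the brightest, averaged -0.20 ± 0.11 and was lower, and the probe on hamV2-116332 averaged 0.09 ± 0.12 and was not called. In MMP14 they share 57 bases, and the probe on hamV2-90113 averaged 0.04 ± 0.09 and was not called, whereas that on hamV2-65314 averaged -0.14 ± 0.06 and was lower. Of the 5 further MMP14 probes that were lower, 4 lie on hamV2-65314, while the brightest MMP14 probe lies on hamV2-90113. Which strand is the coding one is not given in the files used here, and whether all probes of these 2 genes read the gene's own mRNA was not tested.

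Without the 6 arrays that stood apart, which leaves animals 5 to 10 with 1 array each, 11 of the 43 genes (25.6%) were called, 5 higher and 6 lower, against 43.2% of all genes, 24.9% higher and 18.3% lower. Of these, 10 were called in the same direction on 20 arrays, and TIMP3 was the one added. ADAM10, ADAMTS3, ADAMTS4 and ADAMTS9 averaged 0.07, -0.01, 0.09 and 0.07 there and were not called, while MMP17 (0.24) and MMP19 (-0.41) were. Of the 43 genes 19 had opposite signs in the 2 dye orientations, among them 4 called genes, MMP2, MMP28, MMP15 and ADAMTS9. The share of all genes with opposite signs was not worked out, so this count cannot be read as a trait of the family. That ratios run as HFD over pool was read from the dyes given in the arrays' own names.

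**Figure D4:**
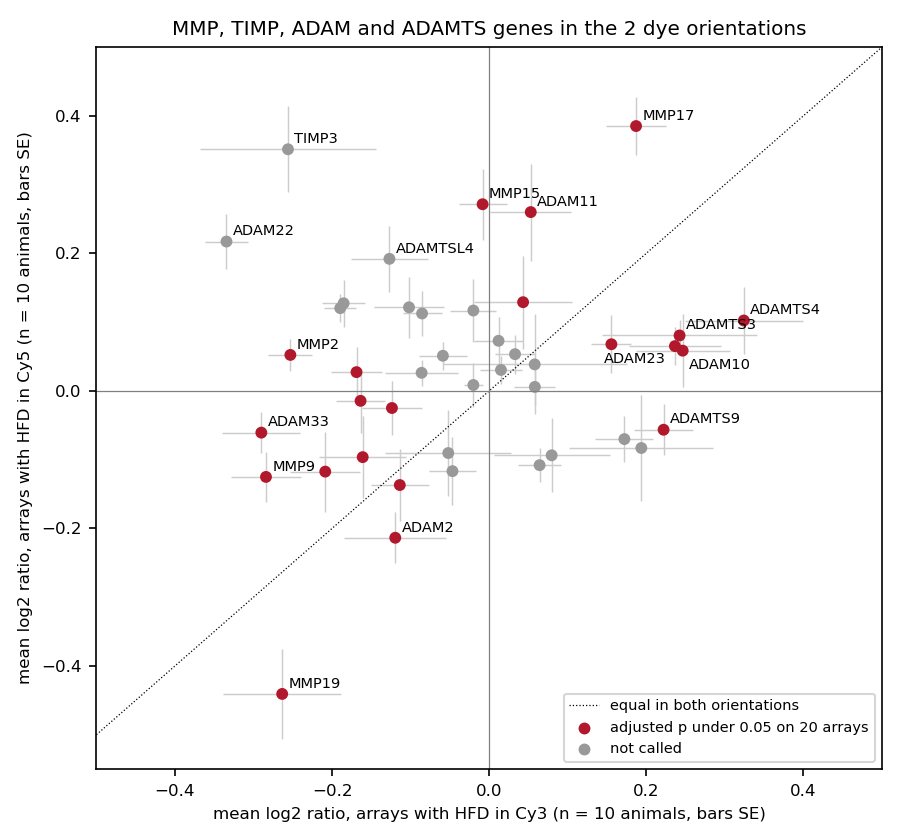
Each dot is 1 gene at its mean log2 ratio (HFD over STD pool, 10 animals, bars SE) on the arrays with HFD in Cy3 (x axis) and on those with HFD in Cy5 (y axis), red where the gene was called on the 20 arrays. MMP19 and MMP17 lie far from 0 on the same side in both, while TIMP3 and ADAM22 lie where the signs differ.

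Several genes around this family had larger mean ratios than any of its members. Of 11 other matrix and cell surface proteases measured, 6 were higher and 2 lower (72.7% called, median 0.11), where 60.3% of all genes were called at a median of 0.01. MEP1B, the meprin beta subunit, ranged from 0.72 to 1.41 with a median of 1.10 and averaged 1.08 ± 0.23 (adjusted p = 2.89e-08). Both of its further probes were higher. CTSK, the collagen-degrading cathepsin K, averaged 0.68 ± 0.28 (adjusted p = 7.34e-06) with 4 of 4 further probes higher, and CTSB, cathepsin B, averaged 0.79 ± 0.32. BMP1, the protease that removes the C-propeptide of procollagens, ranged from -0.89 to -0.44 with a median of -0.66. It was below the pool in every animal, at a mean of -0.65 ± 0.16 (adjusted p = 1.24e-07), and all 20 further probes were lower.

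Of 27 other inhibitors and regulators of MMPs and ADAMs, 3 were higher and 10 lower (48.1% called against 60.3% of all genes, median -0.05). PCOLCE, which enhances the cleavage of procollagen by BMP1, averaged -0.63 ± 0.31 (adjusted p = 2.61e-05), below 0 in 10 of 10 animals, and 5 of 5 further probes were lower. A2M, a broad protease inhibitor of plasma, averaged -1.44 ± 0.35, and ITIH2, a chain of the inter-alpha-trypsin inhibitors, -0.37 ± 0.07 (adjusted p = 1.32e-07) with 8 of 12 further probes lower. CD63, a tetraspanin that binds TIMP1, averaged 0.81 ± 0.29 (adjusted p = 1.91e-06). In the plasmin system and among activators of MMP precursors, 4 of 16 were higher and 7 lower (68.8% against 60.3%, median -0.03). PLAU, the urokinase that makes plasmin, was higher at 0.46 ± 0.23 (adjusted p = 3.9e-05), as was the plasminogen-binding annexin ANXA2 at 1.82 ± 0.49. SERPINF2, the plasmin inhibitor, was lower at -0.37 ± 0.10 (adjusted p = 6.4e-07), and PCSK6, a convertase of the furin family, at -0.88 ± 0.43 (adjusted p = 2.47e-05) with 6 of 6 further probes lower.

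Matrix substrates had 11 of 33 genes higher and 8 lower (57.6%, near the 60.3% of all genes, median 0.04). COL5A2 averaged 0.48 ± 0.07, COL1A1 0.51 ± 0.22 and LAMB2, a laminin chain, 0.35 ± 0.14, while COL14A1 averaged -0.41 ± 0.24. Their probes did not bear these values out evenly. Neither of the 2 further probes was called for COL1A1 or LAMB2, COL5A2 had 2 of 8 higher and 1 lower, and COL14A1 had 9 of 18 higher and 1 lower. Membrane substrates of ADAMs had 11 of 32 higher and 11 lower (68.8% against 60.3%, median -0.01). SDC1, the syndecan shed by several metalloproteinases, ranged from 1.07 to 1.62 with a median of 1.28 and averaged 1.32 ± 0.16 (adjusted p = 2.47e-10). All 8 further probes were higher. TREM2, a macrophage receptor shed by ADAM10 and ADAM17, averaged 0.35 ± 0.27 (adjusted p = 0.0012), whereas BTC, the EGF receptor ligand betacellulin, averaged -0.36 ± 0.20 (adjusted p = 0.000113). NOTCH2 was lower on its brightest probe at -0.43 ± 0.06 (adjusted p = 2.08e-08), with 4 of 8 further probes lower and 2 higher.

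**Figure D5:**
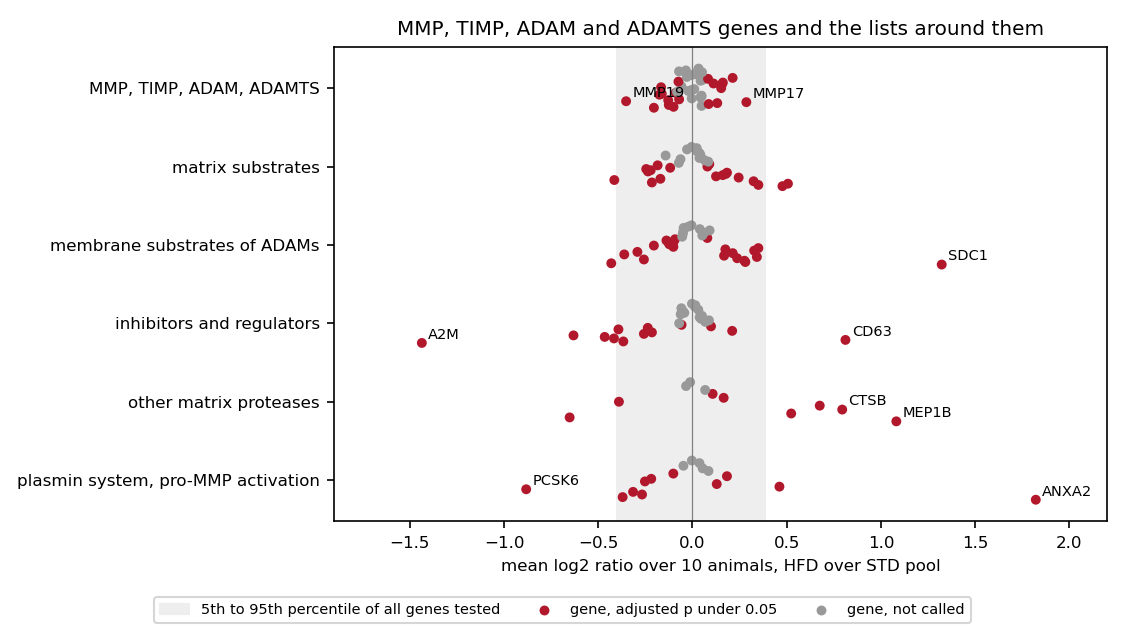
Each dot is the mean log2 ratio of 1 gene over 10 animals, HFD over STD pool, red where its adjusted p was under 0.05, and the grey band spans the 5th to the 95th percentile of all 13827 genes (-0.40 to 0.39). All 43 MMP, TIMP, ADAM and ADAMTS genes lie inside the band, while SDC1, MEP1B, CTSB, CD63, ANXA2, A2M and PCSK6 lie well outside it.

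Markers of the cell types that make these proteins moved in different ways, and their shares called are to be read against 60.3% of all genes, 31.4% higher and 28.9% lower. Hepatocyte markers, 15 of 15 measured well above background on all arrays in both RNAs, had 12 lower and none higher (80% called; FGB -1.17, ASS1 -1.08, AMBP -0.79), and their mean ranged from -0.64 to -0.27 over the animals. Macrophage and Kupffer cell markers had 9 of 14 higher and 3 lower (85.7%; LGALS3 1.30, CD163 -1.25, CD68 0.84), with a mean from -0.02 to 0.41. Stellate cell and fibroblast markers had 4 of 17 higher and 6 lower (58.8%; COL1A1 0.51, RGS5 0.46, ACTA2 0.42), with a mean from -0.12 to 0.09. The 3 stellate markers named all lie above 0, although more of the called markers were lower than higher and the list median was -0.04. Endothelial markers had 4 of 11 higher and 2 lower (54.5%; VWF 0.25, LYVE1 -0.19, CDH5 -0.13), with a mean from -0.06 to 0.09. Neutrophil markers, of which 5 of 13 were measured and not S100A8, S100A9 or MPO, had 2 lower (40%; LTF -0.32, PRTN3 -0.23), with a mean from -0.23 to 0.06. Lymphocyte markers had 7 of 8 lower (87.5%; CD3G -0.18 and MS4A1 -0.13 among them), with a mean from -0.20 to -0.04, and cholangiocyte markers had 1 of 6 lower (16.7%), with a mean from -0.12 to 0.05. The part of these shifts in the values of MMP9, MMP2, MMP14, MMP19 and the other genes was not tested.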

How the data were processed

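Liver RNA of 10 HFD hamsters was set against 1 STD pool on 20 two-colour Agilent arrays. Per the labels' protocols, RNA was isolated on columns and 100 ng was labelled with a whole-transcript kit. The authors deposited spot intensities and local backgrounds in both colours, and intensities processed by Agilent Feature Extraction (background-subtracted, dye-normalised), per the file headers. A further deposited table holds the authors' log2 ratios by probe and animal, for which the submitters' processing notes name limma; their centring and exact scale are unknown, their medians for animals 1 to 10 were 3.44e-05, -0.0144, -0.000399, -0.0017, 0.0185, -0.0122, -0.00981, 0.00754, -0.00119 and -0.0105, and they served as an alternative.

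Intensities were corrected with normexp (offset 50) and normalised by within-array loess in limma 3.58.1 (R 4.3.3), controls and outlier spots at weight 0. The 2 dye-swapped arrays of an animal were averaged. Probes well above background in HFD or pool RNA on at least 10 of 20 arrays were kept, and the brightest stood for its gene. Each mean ratio was tested against 0 with lmFit and eBayes, two-sided, with Benjamini-Hochberg adjustment over 13827 genes (61679 probes for probe calls) and a threshold of 0.05. This takes the pool as a reference without error. All 20 arrays were free of saturated spots, and the share of probes well above background lay between 74.8% and 97.2% in HFD RNA and between 74.1% and 95.8% in the pool. The number of arrays limits the precision. The fit was tested on simulated data.

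Gene names are the array design's. Of the 45 names, 42 occur in the RefSeq annotation of assembly BCM_Maur_2.0 (not ADAM1A, ADAM2 and MMP23). No genome build is named in the files, so no positions are given. Every tested gene is named. Lowest, median and highest values are given for called genes with a mean of at least 0.3 in size and for TIMP1 to TIMP4, MMP2, MMP9, MMP14, ADAM10 and ADAM17. From each surrounding list the 2 genes with the smallest p and the 2 largest among the remaining called ones are named, and from each marker list the 3 largest, some of which are not reported here. Genes and lists were chosen with earlier results of these data known. Ranges for MMP17, ADAMTS1, BMP1, MEP1B and SDC1 and values of other genes were added after they were seen. The alternatives covered background, normalisation, centring, filters, probe choice, orientation, the 6 arrays that stood apart, slide, animal and scan session, and leaving out each animal. Those on 14 arrays, by slide, by animal and by scan session were fitted to single arrays with a term for dye. Arrays of the same slide were allowed to correlate in the slide fit, and arrays of the same animal in the animal and 14-array fits.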

Additional observations from a re-analysis of the deposited data

Results flagged for a closer look

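In 63 groups of 10 animals (the 43 tested genes of the family and 20 named genes around it), 3 had an animal far from the other 9; chance alone flags about 1 group in 20. In MMP19 this was animal 5, at 0.13, where the other 9 animals lay between -0.56 and -0.23. All 7 MMP19 probes of animal 5 lay between -0.03 and 0.19. Its 2 arrays differed on the brightest probe, at -0.04 with HFD in Cy5 and 0.30 with HFD in Cy3, and the mean of MMP19 without animal 5 was -0.41. In TIMP1 it was animal 2, at 0.65, where the others lay between -0.32 and 0.18. Its 3 probes gave 0.65, 0.58 and 0.40 and both orientations were above 0 (0.39 with HFD in Cy5 and 0.90 with HFD in Cy3), and the mean of TIMP1 without animal 2 was -0.02. In ITIH2 it was animal 1, at -0.54, where the others lay between -0.39 and -0.28.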

How the results depend on the processing

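Under 24 alternatives, MMP17 (means from 0.15 to 0.50) and MMP19 (-0.44 to -0.26) kept their direction and call in all, the other 19 called genes lost the call in at least 1, and 15 of the 21 kept their sign in all. Of the 22 genes not called, 6 were called in none. Such counts were not made over all genes, so they do not set this family apart. The counts of the family went to 6 lower with median centring, 6 lower with HFD in Cy5 alone, 5 higher and 6 lower on 14 arrays, and 2 higher and 6 lower in scan session 3 alone. Leaving out each animal gave 9 to 12 higher and 9 to 12 lower. Calls over all 13827 genes, 4343 higher and 3994 lower at first, moved too. They went to 2802 lower with median centring, 3082 lower with HFD in Cy5 alone, and 3448 higher and 2529 lower on 14 arrays. In session 3 alone 2735 were higher and 2360 lower, and leaving out each animal gave 4054 to 4496 higher and 3755 to 4050 lower. Single animals ended the calls of MMP24, ADAM17 and ADAMTS5 and gave a call to ADAM12 (without animal 8 or 10), ADAM22 (4), ADAMTS10 (2), ADAMTSL5 (7) and MMP11 (2), with adjusted p between 0.0221 and 0.0414 at the lowest. In session 3 alone, 11 of 33 matrix substrates were called. With the mean of all probes, ADAM17 (0.11), ADAM9 (0.10) and COL14A1 (0.039) turned. With HFD in Cy5 alone, ADAM22 (0.22), ADAMTS6 (0.13), ADAMTS9 (-0.057), ADAMTSL2 (0.12), MMP2 (0.052) and MMP28 (0.027) turned, and with HFD in Cy3 alone ADAMTS16 (-0.085), ADAMTSL4 (-0.13), MMP15 (-0.0084) and TIMP3 (-0.26). On 14 arrays ADAMTS3 turned (-0.0078). The cause of these changes was not tested. In sessions 1 and 3 alone, 2 settings chosen after seeing the data, MMP19 had fitted means of -0.37 and -0.31 and MMP17 of 0.27 and 0.28. Animals with both arrays in 1 session were to be fitted apart, but each animal's arrays lay in different sessions. No paired analysis was possible because all samples form 1 group and the pool has no replicates.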
